A study of Mus musculus with 12 samples.

Results

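The loci of Egr1, Nr4a1 and Npas4 were examined in maps of accessible chromatin from the mouse dentate gyrus. The members are all peaks that overlap 3 windows in mm9 coordinates: chromosome 18 from 34970000 to 35075000 for Egr1, chromosome 15 from 101030000 to 101156000 for Nr4a1 and chromosome 19 from 4934000 to 5040000 for Npas4. Each window holds the gene and about 50 kb on each side. What is left after taking 50 kb off each side is called the inner window here, 5000 bp for Egr1, 26000 bp for Nr4a1 and 6000 bp for Npas4. The peak lists of the 12 libraries held 76 peaks in the Egr1 window, 128 in the Nr4a1 window and 75 in the Npas4 window. Peaks of different libraries that shared at least 1 bp were joined, which gave 39 regions in the 3 windows, 10 for Egr1, 19 for Nr4a1 and 10 for Npas4, of 170710 regions in all. The series used ATAC-seq, in which a transposase cuts and tags open DNA, on the microdissected dentate gyrus of C57BL/6 mice aged 8 weeks, with 1 mouse per library. Groups E0, E1 and E4 had 4 libraries each. The labels name no genotype beyond the strain and no treatment, and they leave the meaning of E0, E1 and E4 unsaid. The published study, which is not among the sources used here, is known to have applied electroconvulsive stimulation, with E0 mice taken before it, E1 mice 1 h after it and E4 mice 4 h after it. The design text gives the question as how accessibility changes when neurons are activated.

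The genes code for transcription factors that neurons make within minutes of strong activity. Egr1 is a zinc finger protein that binds GC-rich sites and is widely used as a mark of recently active neurons. Nr4a1 is an orphan nuclear receptor, so called because no natural ligand is established for it, and it binds the NBRE site. Npas4 is a bHLH-PAS factor found mainly in neurons and induced by calcium entry, and it acts on genes of synapses, inhibitory ones among them. Such immediate early genes need no new protein for their induction. Factors already present on their promoters, among them CREB at cyclic AMP response elements (CRE) and SRF at CArG boxes, are switched on by calcium and kinase signals.

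The promoters of Nr4a1 and Npas4 are shown because CREB sites are the best known link between neuronal activity and these genes. The 250 bases before the start site are from RefSeq (GRCm38.p6), where 2 of the 3 genes had an entry, on the plus strand for Nr4a1 and on the minus strand for Npas4. Both are written 5′ to 3′ along the gene. Capitals mark the CRE core TGACG, which reads CGTCA on the other strand, and in Nr4a1 also a match to an EGR motif.
Nr4a1: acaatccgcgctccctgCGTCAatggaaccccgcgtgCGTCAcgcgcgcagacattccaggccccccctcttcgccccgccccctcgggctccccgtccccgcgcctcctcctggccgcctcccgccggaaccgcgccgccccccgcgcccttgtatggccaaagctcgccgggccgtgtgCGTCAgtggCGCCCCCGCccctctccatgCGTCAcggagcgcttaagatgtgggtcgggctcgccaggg
Npas4: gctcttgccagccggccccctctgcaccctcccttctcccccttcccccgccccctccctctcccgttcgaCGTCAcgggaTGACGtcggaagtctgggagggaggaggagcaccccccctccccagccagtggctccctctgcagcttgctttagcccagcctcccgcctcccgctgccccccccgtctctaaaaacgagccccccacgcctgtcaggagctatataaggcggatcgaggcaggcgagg
The Nr4a1 promoter held 4 matches to the CRE core and the Npas4 promoter 2, counted on both strands. Of the 32851 promoters of this length in the table, 17.8% held at least 1 match, 3.90% at least 2 and 0.137% at least 4. The EGR motif, searched as GCGGGGGCG or GCGTGGGCG, had 1 match in Nr4a1 and is found in 3.06% of promoters. The full CRE TGACGTCA, which contains the core on each strand and is found in 1.55% of promoters, had no match in either sequence. Neither did the AP-1 site TGANTCA (6.75% of promoters), the NBRE AAAGGTCA (1.34%) or the CArG box (1.47%). The Nr4a1 sequence was 74.4% G and C and the Npas4 sequence 68.8%, and the shares over all promoters were not matched for this. A match describes letters only. The promoter table is of another build than the peaks, so these sequences were not placed on the peaks described next.

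The lists differed widely in length, and this touches every value that follows. On chromosomes 1 to 19 and X they held 24426 to 104120 peaks and covered 7.48 to 59.5 Mb. E4 replicate 1 had the longest list of all, and the other E4 libraries had 3 of the shortest, with 24426 to 34863 peaks. Within E0 and within E1, replicates 1 and 2 had more and wider peaks than replicates 3 and 4. Each E1 list was longer, and covered more bp, than the E0 list of the same number. In replicates 1 to 4, E1 held 84776, 83034, 70491 and 64152 peaks and E0 held 61462, 77130, 36861 and 45005. The lists hold scores but no read counts, so the depth is unknown, and a missing peak means that none was called and not that the chromatin was shut. The tissue is a mixture of cells, so more open chromatin per cell and a larger share of cells with open chromatin cannot be told apart. The lists name no genes, so the labelled tissue was not checked against marker genes. By gene order in the GRCm38 table, the nearest protein-coding neighbours are Reep2 and Etf1 for Egr1, Grasp and Atg101 for Nr4a1, and Mrpl11 and Slc29a2 for Npas4, and peaks in the outer parts of the windows may belong to them.

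All 3 loci already had peaks in E0. Of the 39 regions 4 (10.3%) were called in every library and 16 (41.0%) in at least 8 of the 12. Among all 170710 regions the shares were 5.29% and 18.6%, a description with no test. Of the 4 called in every library, 1 lay in the Egr1 window and 3 in the Nr4a1 window. The Npas4 window had none. Regions of the 3 windows were 203 to 3946 bp wide, with a median of 794 bp against 399 bp for all regions.

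The number of peaks overlapped between the groups at each locus. The Egr1 window held 7, 10, 6 and 6 peaks in E0 replicates 1 to 4, 7, 8, 7 and 6 in E1 and 7, 6, 2 and 4 in E4. The Nr4a1 window held 12, 14, 9 and 7 peaks in E0, 14, 14, 11 and 8 in E1 and 17, 9, 6 and 7 in E4. The Npas4 window held 10, 8, 3 and 4 peaks in E0, 9, 8, 7 and 5 in E1 and 8, 6, 2 and 5 in E4. E4 replicate 3, the shortest list, had the fewest peaks of all libraries at each locus. Single peaks were widest at Egr1, with a median of 561.5 bp (168 to 3946 bp), followed by Nr4a1 with 460.5 bp (139 to 2415 bp) and Npas4 with 355 bp (156 to 1085 bp).

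**Figure D1:**
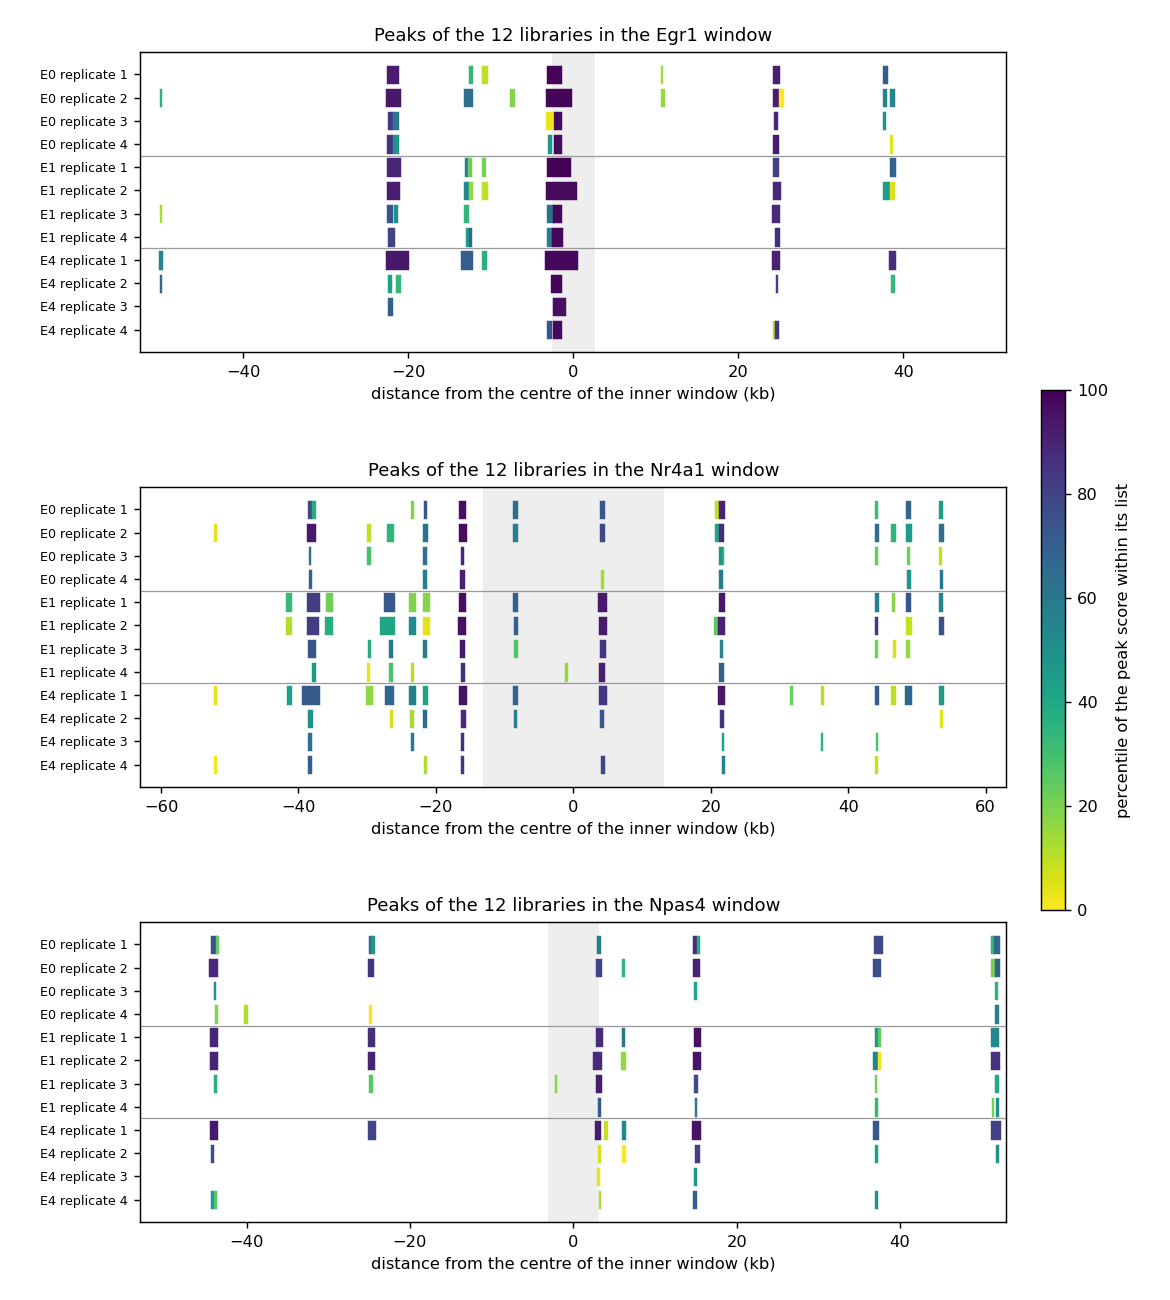
Peaks of the 12 libraries (rows) along the windows of Egr1, Nr4a1 and Npas4, by distance in kb from the centre of the inner window, which is shaded. Each bar is 1 peak, drawn to scale and coloured by the percentile of its score within its own list. A peak with a high percentile stands at the Egr1 inner window in every row, while E0 replicate 3 and E4 replicate 3 have no peak in the Nr4a1 inner window, and E0 replicates 3 and 4 have none in the joined region at the high end of the Npas4 inner window.

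The Egr1 locus was led by one region that was open in every mouse. It ran from 35019040 to 35022985 on chromosome 18 (mm9, 3946 bp), across the low end of the inner window. Its highest peak lay at percentiles 99.2, 98.7, 98.0 and 96.9 of the scores in E0 replicates 1 to 4, at 99.4, 97.5, 98.4 and 98.2 in E1 and at 97.7, 98.5, 96.5 and 97.5 in E4. It was thus among the highest few percent of peaks in all 12 lists, and the groups overlapped. Peaks covered 1746, 3065, 1525 and 1237 bp of it in E0 replicates 1 to 4, 2769, 3624, 1720 and 1636 bp in E1 and 3946, 1210, 1447 and 1405 bp in E4. The longest stretches came from the libraries with the longest lists, and again the groups overlapped. E1 exceeded E0 by 544 bp on average (2437 ± 944 bp against 1893 ± 808 bp, SD, n = 4 each, exact permutation p = 0.40, adjusted p = 0.774), and E4 minus E1 was -435 bp (exact p = 0.600, adjusted p = 0.830). Without single libraries these differences ran from 148 bp (without E1 replicate 2) to 935 bp (without E0 replicate 2) and from -1083 bp (without E4 replicate 1) to -39.7 bp (without E1 replicate 2). E4 minus E0 was 109 bp (exact p = 0.914, adjusted p = 1.0) and turned to -539 bp without E4 replicate 1, to -14.0 bp without E0 replicate 3 and to -110.0 bp without E0 replicate 4.

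A pair of further Egr1 regions was called in 11 of the 12 libraries. The region from 34999763 to 35002465 had peaks covering 989 to 1773 bp in E0 and 767 to 1653 bp in E1. In E4 replicates 1 to 3 they covered 2684, 924 and 405 bp, and replicate 4 had none. The region from 35046599 to 35047966 was covered over 375 to 1284 bp in E0 and 459 to 912 bp in E1, and over 843, 204 and 571 bp in E4 replicates 1, 2 and 4, with no peak in replicate 3. The region from 35008890 to 35010275 was called in 2 E0, 4 E1 and 1 E4 libraries. The opposite order was seen from 35060015 to 35060756, with 3 E0, 1 E1 and 0 E4 libraries, and from 35033124 to 35033451, with 2, 0 and 0. The former touches a region from 35060757 to 35061521, which was called in 2 E0, 2 E1 and 2 E4 libraries. Its order thus depends on where the joined regions end, and peaks were called beside it in E4. Each of the remaining regions was called in 1 to 4 libraries.

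At Nr4a1, a region inside the inner window, from 101096575 to 101097816 on chromosome 15 (mm9, 1242 bp), had longer peaks in all E1 than in all E0 libraries. Such a separation was common, since 14.9% of the 58441 regions tested showed it. Peaks covered 586, 522, 0 and 242 bp of it in E0 replicates 1 to 4, 1206, 1139, 627 and 717 bp in E1 and 1040, 386, 0 and 448 bp in E4. Every E1 library lay above every E0 library, while E4 ranged from no peak to values among those of E1. The E1 peaks lay at percentiles 93.3, 93.2, 85.0 and 91.6 of their lists, the E0 peaks at 73.3, 78.8 and 13.2 in replicates 1, 2 and 4, and the E4 peaks at 84.2, 73.5 and 78.7 in replicates 1, 2 and 4. Percentiles from lists of different length are a description only. E1 exceeded E0 by 585 bp (922 ± 293 bp against 338 ± 270 bp, SD, n = 4 each), with an exact permutation p of 0.0286, the smallest that 4 against 4 allows, and an adjusted p of 0.177 over all regions tested. When E1 replicate 1 or 2 or any single E0 library was left out, the exact permutation p was 0.0571 to 0.0857. The differences were then 472 to 668 bp, and all E1 libraries left still lay above all E0 libraries. With the replicate number as a block the exact p was 0.125, the smallest that 4 pairs allow. E4 minus E0 was 131 bp (exact p = 0.657, adjusted p = 0.974) and turned to -59.5 bp without E4 replicate 1, and E4 minus E1 was -454 bp (exact p = 0.143, adjusted p = 0.621).

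The same inner window held 2 weaker regions. The one from 101084247 to 101084819 had a peak in 2 E0, 3 E1 and 2 E4 libraries, with 348 to 550 bp where called. The one from 101091849 to 101092106 was called in E1 replicate 4 alone, over 258 bp.

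At lower coordinates than the inner window, the region from 101064905 to 101066970 was called in 1 E0, 4 E1 and 2 E4 libraries. In number of libraries that was the largest difference between E0 and E1 of all 39 regions. Of all 170710 regions, 45.5% were called in more E1 than E0 libraries and 3.27% in 4 against 0. The share with 4 against 1 was not counted. Peaks covered 795 bp of the region from 101064905 in E0 replicate 2 and none in the other E0 libraries. In E1 replicates 1 to 4 they covered 1468, 2066, 439 and 472 bp, and in E4 replicates 1 and 2 they covered 1175 and 303 bp. E0 replicate 2 thus lay above the lower 2 E1 libraries, and the groups overlapped. The difference between E1 and E0 was 912.5 bp (exact permutation p = 0.0857, adjusted p = 0.371). It was 367 bp in lists of equal length (exact p = 1.0), 477 bp with a score of at least 100 (exact p = 0.429) and 594 bp without E1 replicate 2. Without E0 replicate 2 the region had a peak in 4 E1 libraries and in no E0 library. The share of all regions that did so without that library was not counted.

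The 3 Nr4a1 regions found in every library lay outside the inner window. The region from 101076278 to 101077333, the highest of the window by score, lay at percentiles 89.6 to 96.7 in E0, 86.8 to 96.8 in E1 and 85.9 to 95.1 in E4, and was covered over 384 to 958, 509 to 1004 and 331 to 961 bp. The region from 101113541 to 101114990 was covered over 439 to 1140 bp in E0, 399 to 1338 bp in E1 and 225 to 910.0 bp in E4. The groups overlapped in both. The region from 101053585 to 101056040 was covered over 734, 1078, 236 and 332 bp in E0 replicates 1 to 4, over 1772, 1619, 1069 and 431 bp in E1 and over 2415, 489, 410.0 and 365 bp in E4. E1 replicates 1 and 2 and E4 replicate 1 lay above every E0 library, and the other E1 and E4 libraries lay among the E0 values.

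The other 12 Nr4a1 regions were called in 1 to 10 libraries. The region from 101069028 to 101070003 had a peak in 1 E0, 3 E1 and 3 E4 libraries. Those from 101051163 to 101051881 and from 101056854 to 101057926 had none in E0 and a peak in E1 replicates 1 and 2, and the former also in E4 replicate 1. The region from 101141339 to 101142151 was called in 4 E0, 3 E1 and 1 E4 libraries, and that from 101146200 to 101146795 in 4, 2 and 2. Between 101124473 and 101139783 lay 4 regions with other orders, called in 0, 0 and 1, in 0, 0 and 2, in 3, 3 and 3 and in 1, 2 and 1 libraries.

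At Npas4, the region at the high end of the inner window was called in 2 E0 libraries and in all 8 libraries of E1 and E4. Of all regions, 45.5% were called in more E1 than E0 libraries, and the share with this stricter pattern was not counted. The Npas4 region ran from 4989439 to 4990461 on chromosome 19 (mm9, 1023 bp), past the end of the inner window at 4990000. The peaks of E1 replicate 4 and of E4 replicates 2 and 4 lay wholly beyond that end. Npas4 lies on the minus strand, so a start site would be looked for at this end of the gene. Peaks covered 355, 659, 0 and 0 bp in E0 replicates 1 to 4, 724, 1003, 549 and 298 bp in E1 and 624, 205, 200 and 157 bp in E4. The E1 values were mostly the longest, but E0 replicate 2 lay above 2 of them, and 3 of the E4 peaks were shorter than both E0 peaks. The score percentiles were 57.7 and 79.7 in E0 replicates 1 and 2, 87.9, 87.8, 91.8 and 71.7 in E1 and 92.7, 6.28, 3.06 and 12.7 in E4. In 3 of the 4 E4 libraries the peak was therefore near the bottom of its list, and those are the short lists. E1 exceeded E0 by 390.0 bp (644 ± 297 bp against 254 ± 318 bp, SD, n = 4 each, exact permutation p = 0.143, adjusted p = 0.477). E4 minus E1 was -347 bp (exact p = 0.0857, adjusted p = 0.621) and E4 minus E0 43.0 bp (exact p = 0.771, adjusted p = 1.0), which turned to -66.2 bp without E4 replicate 1 and to -41.5 bp without E0 replicate 3 or 4.

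**Figure D2:**
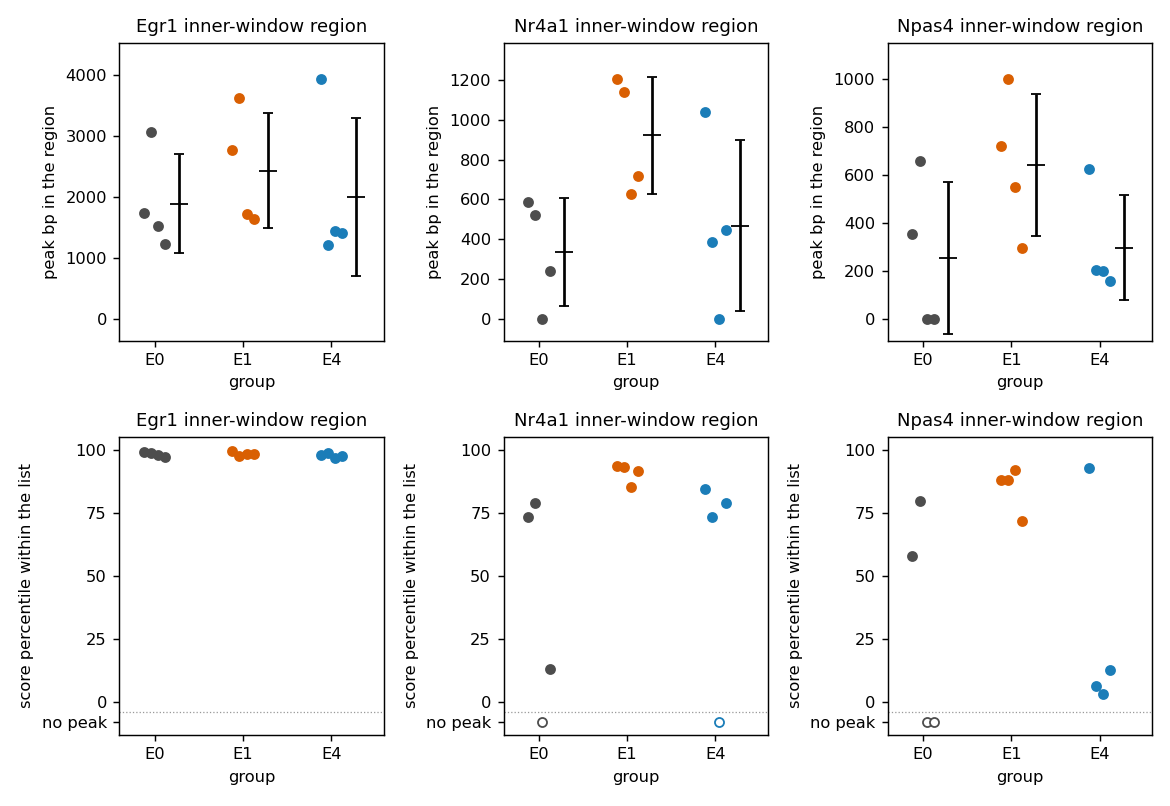
Peak bp (top) and score percentile within the list (bottom) for the leading regions of the Egr1, Nr4a1 and Npas4 inner windows in each library, by group. Points are libraries, bars show the mean and SD of 4, and open circles are libraries with no peak. At Nr4a1 the E1 points, 627 to 1206 bp, stand above the E0 points, 0 to 586 bp, while the groups overlap at Egr1 and Npas4.

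The region from 5001574 to 5002491, the highest of this window by score, was covered over 712, 765, 210.0 and 0 bp in E0 replicates 1 to 4, 760.0, 778, 374 and 190.0 bp in E1 and 884, 547, 242 and 329 bp in E4. In every group the libraries with the longest lists gave its longest peaks. The region from 5023678 to 5024803 was called in 2 E0, 4 E1 and 3 E4 libraries, and those from 4942454 to 4943499 and from 5038079 to 5039189 in 10 libraries each. Inside the inner window, a short peak from 4984723 to 4984925 was called in E1 replicate 3 alone. The other 4 regions were called in 1 to 7 libraries.

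Summed over a window, peaks covered more in E1 than in E0 on average at all 3 loci, but the libraries of the groups overlapped. In the Nr4a1 window they covered 5708, 8480, 2574 and 2712 bp in E0 replicates 1 to 4, 11485, 12916, 5063 and 3519 bp in E1 and 13297, 3725, 1760 and 2230 bp in E4. E1 replicates 1 and 2 lay above every E0 library and E1 replicates 3 and 4 did not. Each E1 library lay above the E0 library of the same number, but in every such pair the whole E1 list was also the longer. In the Egr1 window the values were 5534, 9020, 3141 and 3392 bp in E0, 6783, 8827, 4306 and 3228 bp in E1 and 10582, 2902, 1852 and 1976 bp in E4. In the Npas4 window they were 4373, 5326, 745 and 1236 bp in E0, 4642, 5531, 2248 and 1133 bp in E1 and 5514, 1891, 442 and 1280 bp in E4. The groups overlapped in every comparison, and E4 replicate 1 was the highest E4 library in all 3 windows.

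Per 100 kb, E1 exceeded E0 by 2680 bp at Nr4a1 (exact permutation p = 0.229, adjusted p = 0.691), 490 bp at Egr1 (exact p = 0.80, adjusted p = 1.0) and 442 bp at Npas4 (exact p = 0.629, adjusted p = 0.945), with adjustment over 23309 tiles of 100 kb and the 3 windows. None of the 3 windows had all E1 libraries above all E0 libraries, which 8.14% of tiles had, and none had all below, as 0.309% of tiles had. The Nr4a1 difference was larger than that of 99.5% of tiles, against 69.9% for Egr1 and 67.0% for Npas4. In lists of equal length the differences were 1027 bp at Nr4a1 (exact p = 0.343), 149.5 bp at Egr1 (exact p = 0.857) and 9.20 bp at Npas4 (exact p = 0.943). At Nr4a1 it was 1423 bp with a score of at least 100 (exact p = 0.343), and it ran from 1445 bp (without E1 replicate 2) to 3931 bp (without E1 replicate 4) when single libraries were left out. Windows with more peaks can differ by more bp, and E0 covered 3864 bp per 100 kb at Nr4a1 where tiles held 1261 bp on average over E0 and E1. At Egr1 the difference turned to -476 bp without E1 replicate 2, -187 bp without E0 replicate 3 and -107 bp without E0 replicate 4. At Npas4 it turned to -232, -242 and -87.6 bp without the same libraries in turn.

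E4 did not separate from the other groups by covered length. E4 minus E0 per 100 kb was -899 bp at Egr1 (exact permutation p = 0.657), 305 bp at Nr4a1 (exact p = 0.886) and -602 bp at Npas4 (exact p = 0.83), each with an adjusted p of 1.0. No window had all E4 libraries above all E0 libraries (0.0910% of tiles) or below them (0.308%). The sign turned at Nr4a1 to -1823 bp without E4 replicate 1, -302 bp without E0 replicate 3 and -265 bp without E0 replicate 4, and without E0 replicate 2 it turned at Egr1 to 291 bp and at Npas4 to 154.5 bp. E4 minus E1 was -1389 bp at Egr1 (exact p = 0.600, adjusted p = 0.989), -2375 bp at Nr4a1 (exact p = 0.40, adjusted p = 0.915) and -1044 bp at Npas4 (exact p = 0.457, adjusted p = 0.927). No window had all E4 libraries above all E1 libraries (0.00858% of tiles) or below them (1.26%). For E4 minus E0, 3.67% of tiles had a lower difference than Egr1, 90.8% a lower one than Nr4a1 and 9.73% a lower one than Npas4. For E4 minus E1 the shares were 5.97%, 0.811% and 12.4%, so Nr4a1 lay near the low end. These comparisons share libraries and are not independent of each other.

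**Figure D3:**
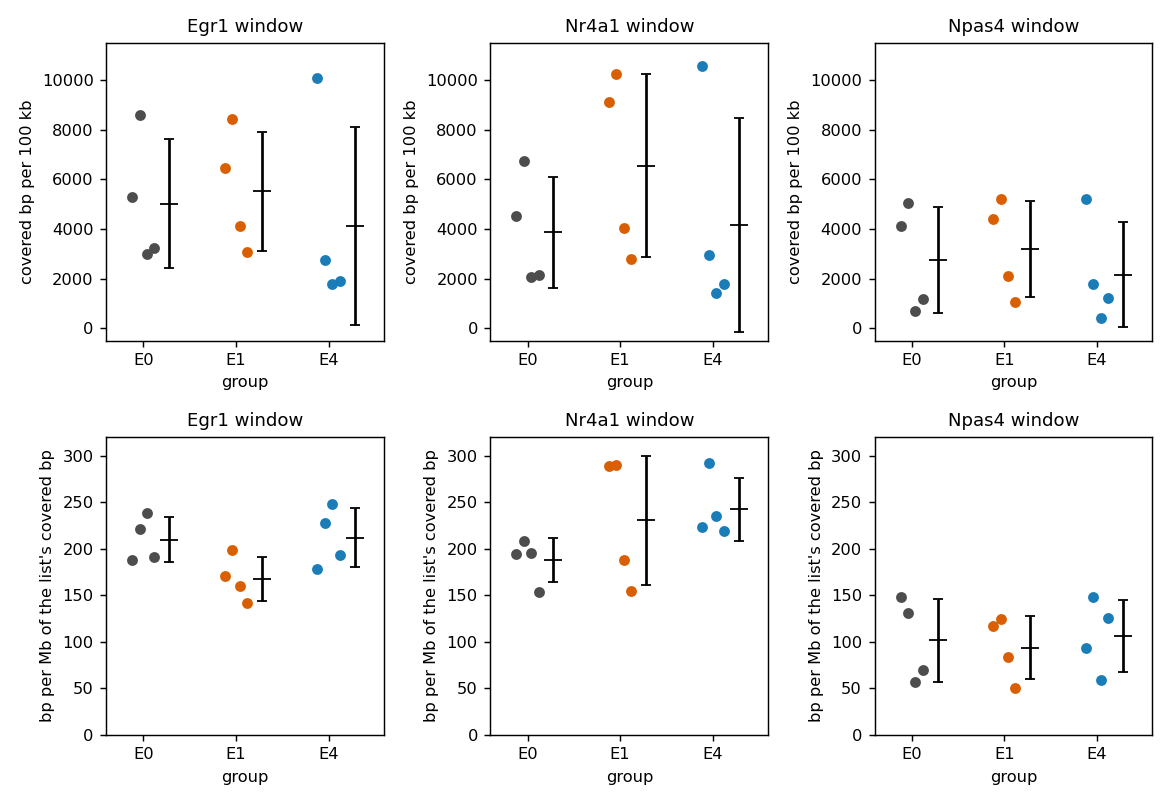
Covered bp per 100 kb (top) and covered bp per Mb of the list's whole covered length (bottom) in the windows of Egr1, Nr4a1 and Npas4, by group. Points are libraries and bars show the mean and SD of 4. Groups overlap in all upper panels, with E4 replicate 1 far above the other E4 libraries at Egr1 and Nr4a1.

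**Figure D4:**
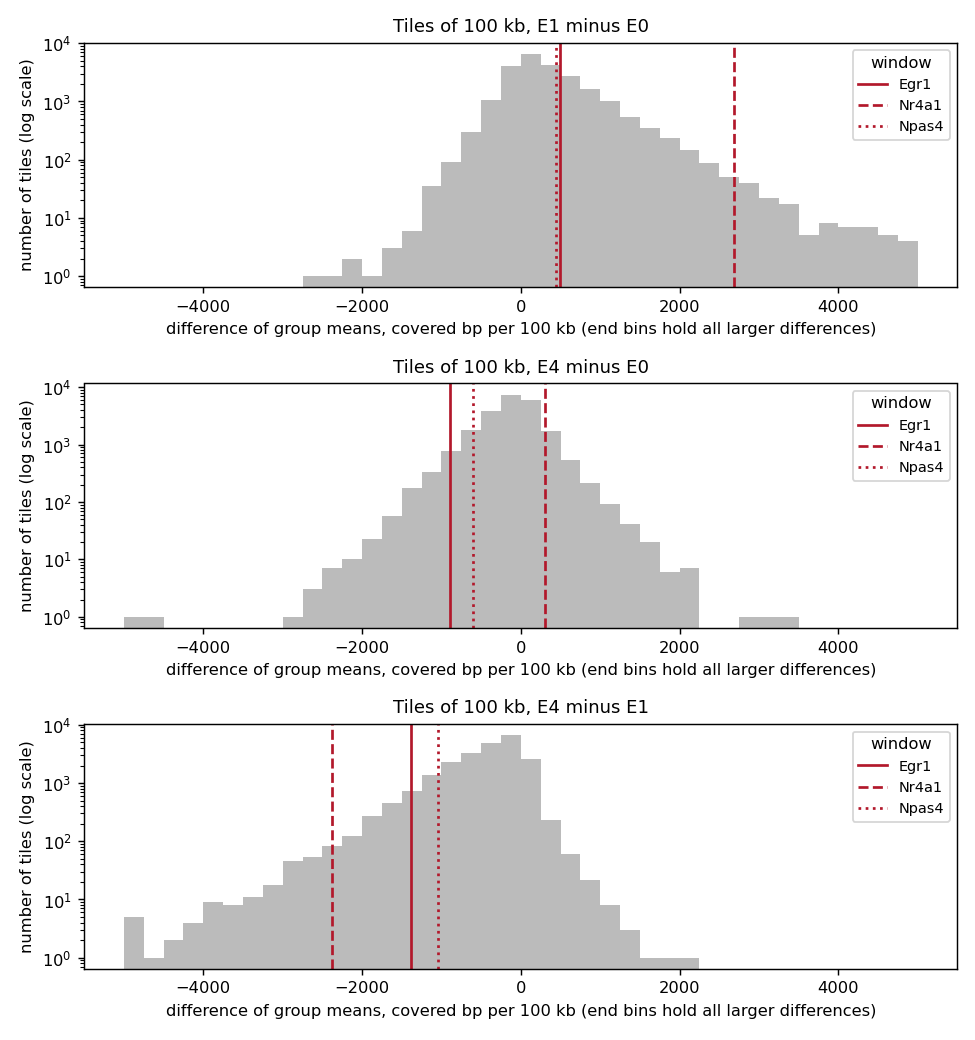
Difference of group means in covered bp per 100 kb for all tiles (grey, log scale of tile number) and for the windows of Egr1, Nr4a1 and Npas4 (red lines), in the 3 comparisons. The Nr4a1 window, at 2680 bp, lies far to the right of most tiles for E1 minus E0 and, at -2375 bp, far to the left for E4 minus E1.

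The order of the groups changed when covered bp was divided by the whole covered length of the list. The Nr4a1 window held 194, 208, 195 and 153 bp per Mb of covered length in E0 replicates 1 to 4, 289, 290.0, 188 and 155 in E1 and 223, 292, 235 and 218 in E4. All 4 E4 libraries lay above all 4 E0 libraries, by 54.9 bp per Mb on average (exact permutation p = 0.0286), as did 2.28% of tiles. The exact permutation p was higher without E4 replicate 2 (38.2 bp per Mb, exact p = 0.0571) or E0 replicate 4 (43.4 bp per Mb, exact p = 0.0857). The E4 libraries left still lay above the E0 libraries. E1 minus E0 at Nr4a1 kept its sign, at 42.85 bp per Mb (exact permutation p = 0.371), and the groups overlapped. It ran from 22.9 (without E1 replicate 2) to 68.0 bp per Mb (without E1 replicate 4) when single libraries were left out. At Egr1 the share was 188 to 238 bp per Mb in E0, 142 to 198 in E1 and 178 to 248 in E4, and E1 had the lowest mean (E1 minus E0, -42.0 bp per Mb, exact permutation p = 0.0857). Without E1 replicate 2 all E1 libraries lay below all E0 libraries there (-52.2 bp per Mb, exact p = 0.0286), as they did in 6.43% of tiles. Leaving out any other library of E1 or E0 gave exact p-values from 0.0857 to 0.171. Npas4 shares ran from 56.5 to 148.5, 49.9 to 124 and 59.1 to 148 bp per Mb.

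None of the 39 regions had a peak in all 4 libraries of one group and in none of another. For E1 against E0, 3.27% of all regions were gained in this sense and 0.182% lost. The shares were 0.136% and 0.145% for E4 against E0 and 0.00996% and 0.448% for E4 against E1. In number of libraries, 15 of the 39 regions were called in more E1 than E0 libraries, 9 in fewer and 15 in as many, where 45.5% of all regions were called in more and 23.5% in fewer. From E1 to E4 the numbers were 5 in more, 18 in fewer and 16 in as many, where 19.1% of all regions were called in more and 52.2% in fewer. The counts of the 3 windows lay near these shares.

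By peak bp, 24 of the 39 regions had a peak in at least 4 of the 8 libraries of E1 and E0 and could be tested. Only the inner Nr4a1 region had all E1 libraries above all E0 libraries, 1 of 24, where 14.9% of all regions tested did, and 0 of 24 had all below (1.26%). The share in the 3 windows was thus not above that of the genome. Taken as pairs by replicate number, 6 of the 24 regions had E1 above E0 in all 4 pairs, where 26.0% of all regions tested did. They were the leading Egr1 region, the Nr4a1 regions that start at 101053585, 101064905 and 101096575, and the Npas4 regions that start at 4989439 and 5001574. At the Nr4a1 window E1 was also above E0 in all 4 pairs, by 5777, 4436, 2489 and 807 bp, as in 30.1% of tiles (exact permutation p = 0.125 with the replicate block, the smallest that 4 pairs allow). For E4 against E0, 0 of 20 regions were above or below (0.710% and 1.03% of all tested), and for E4 against E1 0 of 23 (0.0457% and 2.55%). No region, in the 3 windows or elsewhere, had an adjusted p under 0.05 in these exact permutation tests. With 0.0286 as the smallest p that 4 against 4 allows, this would need most of the regions tested to separate. The adjusted test could thus hardly pass, and its result does not show that no region changed.

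Ranks from the top were compared after keeping the 24426 highest peaks of every list, the length of the shortest one, with the next rank given to a library that lacked the region. The inner Nr4a1 region ranked 5693, 5644, 10580 and 5384 in E1 replicates 1 to 4 and 16392 and 16329 in E0 replicates 1 and 2, and was not among the top peaks in E0 replicates 3 and 4. In E4 replicates 1, 2 and 4 it ranked 16460.0, 9252 and 6774.5, with none in replicate 3. All E1 libraries thus ranked it above all E0 libraries (exact permutation p = 0.0286, adjusted p = 0.109 over 23145 regions), also with any single E0 or E1 library left out (exact p = 0.0286 each). The Npas4 region at the high end of the inner window ranked 10264, 10137, 5760.0 and 18162 in E1 replicates 1 to 4, 15626 in E0 replicate 2, 7620.0 in E4 replicate 1 and 23680 in E4 replicate 3, and was not among the kept peaks of the other libraries (E1 against E0, exact permutation p = 0.0571, adjusted p = 0.180). The leading Egr1 region ranked between 502 and 2412 in all 12 lists, and E1 and E0 overlapped (exact permutation p = 0.486, adjusted p = 0.685).

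Further regions of the same loci ranked lower in E1 than in E0. Of 12 regions of the windows that could be tested, 1 was ranked higher in all E1 than in all E0 libraries and 2 lower, beside 15.4% and 10.8% of all regions tested. The Egr1 region from 35046599 to 35047966 ranked 5341, 6036, 4407 and 3664 in E0 replicates 1 to 4 and 16198, 9487, 8476 and 8954 in E1 (exact permutation p = 0.0286, adjusted p = 0.109), also with any single library left out. The Nr4a1 region from 101053585 to 101056040 ranked 13859, 5302, 13790.0 and 13782.5 in E0, 14942, 14605 and 18517 in E1 replicates 1 to 3, and was not among the kept peaks of E1 replicate 4 (exact permutation p = 0.0286, adjusted p = 0.109). For the latter region the exact permutation p was 0.0857 to 0.171 without E1 replicate 4 or any single E0 library. The mean rank difference was then 4312 to 7165, and all E1 libraries left still ranked it below all E0 libraries. By peak bp in the full lists the same region went the other way, with E1 above E0 in all 4 pairs. As a block by replicate number, all 3 of these rank calls had an exact p of 0.125, the smallest that 4 pairs allow. For E4 the ranks overlapped with those of E0 in all 12 regions tested and with those of E1 in all 10.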

How the data were processed

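The 12 deposited peak lists, 1 for each mouse, give chromosome, start, end, name and score. The submitters' processing notes name Bowtie2 and mm9, and peak names carry the MACS prefix, per the file contents. The score is the authors' deposited value, and none is below 50. Not given in the sources used here were its scale, the caller's version, threshold and control, the read shift and how duplicates were treated. Read shifting moves edges slightly, and retained duplicates could lengthen a list. Scores were used to rank peaks within a list, as the percentile of the peak's rank. They were also used in the alternative that kept scores of at least 100. With the scale unknown, that cut may not mean the same in every list.

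Peaks on chromosomes 1 to 19 and X were kept and merged over the 12 lists (checked against bedtools 2.31.1). Covered bp of a window and peak bp of a region were tested by exact permutation, two-sided, on the difference of group means, over all 70 assignments (numpy 2.4.6), with Benjamini-Hochberg adjustment over all tiles or over all regions with a peak in at least 4 of the 8 libraries. The functions were tested on simulated data. The windows, regions and tests were chosen with earlier results of these data known. Regions were named if they lay in an inner window, were found in all 12 libraries or led a window by score. Others were named by their number of libraries after values were seen, and the rank test was added then too. Same-numbered E1 and E0 libraries deviated together over tiles (r from 0.276 to 0.730), while libraries with different numbers ranged from -0.751 to 0.716. Only 2 of the 4 numbers had their highest r with their own number. As a share of the list, r was 0.114 to 0.428 for the same number and -0.377 to 0.32 for different numbers. Same-numbered libraries were treated as pairs, though the labels name no shared animal or batch. The pairs were thus chosen from the covered bp that the paired counts use. The part of list length in these correlations was not tested. The alternatives were equal list length, shares of the list, a score of at least 100, 25 kb flanks, other merging and overlap, leaving out each library, and the replicate block. Chromosome Y (286 peaks) was left out.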

Additional observations from a re-analysis of the deposited data

Results flagged for a closer look

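In sets of 4 libraries, a value is listed here when its gap to the nearest other value divided by the range of the set exceeds Dixon's 95% critical value. Of 21 sets examined 5 met this, where chance gives about 1 in 20 for independent, normally distributed values. The sets share libraries, and the regions lie inside the windows, so the flags are not independent. In E4 replicate 1 peaks covered 10582 bp of the Egr1 window and 13297 bp of the Nr4a1 window, 3946 bp of the leading Egr1 region and 624 bp of the Npas4 region at the high end of the inner window, each far above the other E4 libraries. The list of E4 replicate 1 is the longest of the series, and its part in these values was not tested. In E0 replicate 2 peaks covered 795 bp of the Nr4a1 region from 101064905 to 101066970, where the other E0 libraries had none. With none in the others, a peak of any length would be listed.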

How the results depend on the processing

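No read counts were used here, so list length, which may follow depth, limits all statements on absent peaks. Covered bp in the windows passed no test as analysed. As a share of the list the differences in bp per Mb were -42.0, 2.02 and 44.1 at Egr1 for E1 minus E0, E4 minus E0 and E4 minus E1, -7.81, 5.04 and 12.9 at Npas4 in the same order, 12 at Nr4a1 for E4 minus E1, all of the opposite sign, and 54.9 at Nr4a1 for E4 minus E0 (exact permutation p = 0.0286). Of these shares only the Egr1 differences E1 minus E0 and E4 minus E1 and the Nr4a1 difference E4 minus E0 kept their sign without each single library. The others reached -9.95 at Egr1 (E4 minus E0, without E4 replicate 3), -13.1 at Nr4a1 (without E1 replicate 4), and 7.93 (without E0 replicate 1), -9.92 (without E0 replicate 3) and -1.70 (without E1 replicate 4) at Npas4 in the order above. Lists of equal length turned E4 minus E0 at Nr4a1 to -427 bp per 100 kb, and 25 kb flanks turned it at Npas4 to 215. Leaving out single libraries gave, per 100 kb, -476 to 1680 (E1 minus E0) and -2884 to 291 (E4 minus E0) at Egr1, 1445 to 3931 (E1 minus E0) and -1823 to 1261 (E4 minus E0) at Nr4a1, and -242 to 1199 and -1619 to 154.5 at Npas4. For peak bp of a region, E4 minus E0 ran from -539 to 499 at the leading Egr1 region, -59.5 to 287 at the inner Nr4a1 region, -97.8 to 369.5 at the Nr4a1 region from 101064905 and -66.2 to 178 at the inner Npas4 region, which was -97.5 with a score of at least 100. The causes were not tested. Gained regions (E1 against E0) numbered 1 with at least 50% of the region covered, the inner Nr4a1 region, and 0 to 1 without single libraries (1 without E0 replicate 2). Lost regions also numbered 0 to 1. For E4 against E0 there was 1 without E4 replicate 1, from 101141339 to 101142151, and 1 without E0 replicate 4, from 35060015 to 35060756. The latter touches the region from 35060757 to 35061521, which was called in 2 E4 libraries. For E4 against E1 there was 1 without E4 replicate 1, from 35008890 to 35010275. The shares of all regions gained or lost under these changed rules were not counted, so these numbers have no background beside them. With the replicate block, the inner Nr4a1 region (585 bp), the 3 rank calls and the Nr4a1 share of the list for E4 minus E0 each had an exact p of 0.125. That is the smallest that 4 pairs allow, so no call could be made or kept with the block. Same-numbered libraries of E4 did not all deviate with those of E0 (r from -0.742 to 0.835) or E1 (r from -0.672 to 0.726).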
